A study of Mus musculus with 90 samples.

Results

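This account concerns the amygdala of control mice and how its transcripts differed between 30 and 120 min after a short exposure to an empty cage. The members were chosen by their labels: the 5 control amygdala libraries taken at 30 min (replicates 1 to 5) and the 5 taken at 120 min (replicates 1, 2, 3, 4 and 6), 10 of the 90 libraries of the series. The animals were resident C57BL/6J males that had shared a cage with a C57BL/6J female, and the female was taken out before the test. A control resident was shown a wire mesh cage holding a paper cup for 5 min and was then left in the dark and quiet until it was killed. Residents shown a BALB/c male in the same mesh cage (intruder-exposed), control amygdala at 60 min, and the hypothalamus and frontal cortex of the controls serve here for comparison only. Each library carries the label of 1 animal, while the design text speaks of pooled RNA samples in making the libraries. Levels before the exposure and in mice without any exposure were not analysed here.

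The amygdala is a group of forebrain nuclei that takes part in assigning emotional value to stimuli, and a new object in the home cage is enough to arouse a mouse. Neurons that have just been excited switch on immediate-early genes, among them the Fos and Jun partners of the AP-1 factor, the Egr zinc finger factors, the Nr4a nuclear receptors, Arc and Npas4, whose transcripts are made within minutes and are short-lived. A slower layer of transcripts, such as Fkbp5, Hif3a and Zbtb16, is induced by glucocorticoid hormones that the adrenal gland releases on arousal.

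Between 45.84 and 52.39 M reads of each library fell in genes, with similar depth at both times, and mitochondrially encoded transcripts took 7.6% to 10.03% of them at 30 min and 7.77% to 8.86% at 120 min. The 7 amygdala markers (among them Prkcd, Rspo2 and Cyp26b1) were detected in each of the 10 libraries and summed to 167 to 214 CPM (read counts scaled to a common library size) at 30 min and 142 to 226 CPM at 120 min. Transcripts of neighbouring tissue varied from library to library within both times: striatal markers summed to 312 to 1810 CPM at 30 min (median 1010) and 314 to 1680 CPM at 120 min (median 534), and choroid plexus markers to 39.2 to 271 CPM and 28.9 to 66.9 CPM. None of the markers was called, but for several lists each member had a negative log2 fold change from 30 to 120 min. These were the 8 endothelial (median -0.34), 8 mural (-0.23), 8 striatal (-0.35), 8 oligodendrocyte (-0.12), 6 meningeal fibroblast (-0.28) and 3 ependymal markers (-0.53). Choroid plexus had 7 of 8 negative and a median of -1.19, while all 5 red cell markers were positive (median 0.45). Endothelial markers summed to 186 to 264 CPM at 30 min and 125 to 219 CPM at 120 min. No marker of the 16 lists was at 0 in all libraries of a time. A technical property follows time here. The first library index of all 5 libraries at 120 min was one that none of the 5 libraries at 30 min carried, and a tag in the names of the count columns, whose meaning the labels do not give, differed between every library of the series at 30 min and every one at 60 or 120 min. In the comparison of 30 with 120 min neither can be told apart from time.

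Of 17277 genes tested, 25 were called between 30 and 120 min (0.145% of genes, edgeR quasi-likelihood test, Benjamini-Hochberg adjusted p under 0.05). Of these, 10 were higher at 120 min (0.0579% of genes) and 15 were lower (0.0868%). The split was 0 higher and 6 lower in a fit of the 3 control groups alone, 2 and 8 in a fit of the 10 libraries alone, 46 and 47 with DESeq2, and 28 and 16 without replicate 1 at 120 min. The 15 lower genes hold 10 genes of the 5 lists of activity-induced genes, and also Apold1, the non-coding gene 1700016P03Rik, Hipk4 and Gbp2b. The 10 higher genes are Rbm25, Terf2, Tlr7, Hif3a, Dcbld2, Tmem196, Rin2, Lrrn1 and the processed pseudogenes Gm7808 and Gm3272. In 24 of the 25 the libraries of the 2 times did not overlap, against 1.71% of all genes. The exception was Tmem196. The 25 were called on these same libraries, which favours a lack of overlap. All log2 fold changes below are 120 min over 30 min unless stated otherwise.

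**Figure D1:**
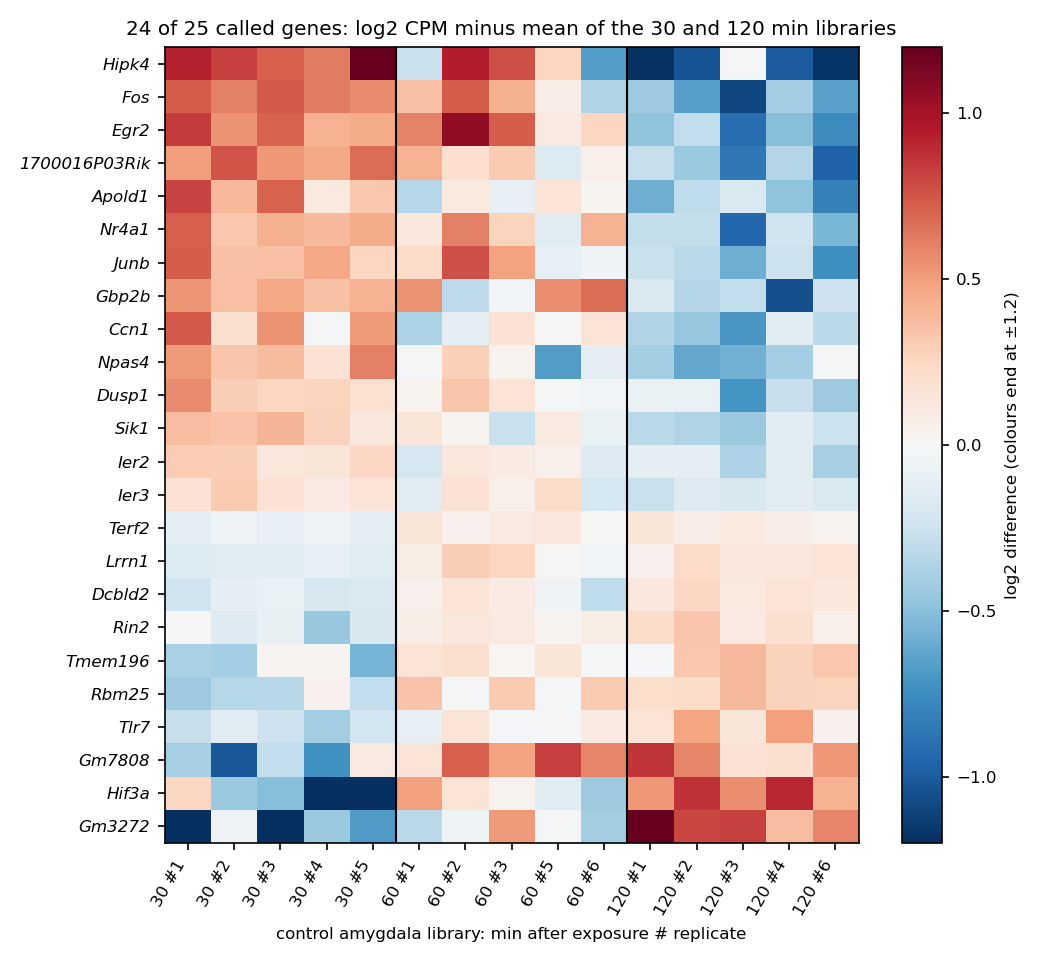
Heat map of 24 of the 25 called genes (rows, ordered by log2 fold change) in the 15 control amygdala libraries (columns, 30, 60 and 120 min with replicate number). Colour is log2 CPM minus the gene's mean over the 30 and 120 min libraries, and the 60 min means in CPM lie between those of the other times for 14 of 14 lower genes and 8 of 10 higher genes drawn.

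Among the AP-1 factors, Fos, whose protein pairs with Jun proteins to bind DNA, fell by more than any other activity-list gene called here. In the order of the replicates, Fos (ENSMUSG00000021250) stood at 39.2, 36.0, 39.4, 36.5 and 35.0 CPM at 30 min and at 17.5, 15.0, 11.1, 17.7 and 15.1 CPM at 120 min. Each library at 30 min was thus at least at 35.0 CPM and each at 120 min at most at 17.7 CPM. The means were 37.2 ± 1.97 and 15.3 ± 2.67 CPM (SD, n = 5 each), a log2 fold change of -1.28 with a standard error of 0.153 and an adjusted p of 9.03e-05 (edgeR). Junb, another AP-1 partner, was at 69.4, 53.4, 53.9, 57.9 and 49.9 CPM at 30 min and at 34.8, 33.4, 27.8, 35.0 and 25.2 CPM at 120 min. Its log2 fold change was -0.87 with a standard error of 0.171 (adjusted p = 0.027, edgeR). Of the 7 AP-1 genes tested (Fosl1 was under the filter on low counts) these 2 were called lower, beside 0.0868% of all genes. The median log2 fold change was -0.46, against -0.00 over all genes. Fosl2 at -0.42, Fosb at -0.46 and Atf3 at -0.88 had adjusted p-values of 0.131, 0.317 and 0.153 and were not called. Jun at -0.10 ± 0.187 (SE) and Jund at 0.10 ± 0.0948 lay within about 1 standard error of 0.

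The Egr zinc finger factors and the Nr4a orphan nuclear receptors each gave 1 called gene. Egr2 was at 12.0, 9.73, 10.9, 8.93 and 9.14 CPM at 30 min and at 4.8, 5.47, 3.55, 4.7 and 3.96 CPM at 120 min. All 5 later libraries lay below all 5 earlier ones, and the log2 fold change was -1.17 ± 0.231 (SE, adjusted p = 0.027, edgeR). Of the other Egr genes, Egr4 had -0.57 (adjusted p = 0.161), Egr1 -0.40 (0.247) and Egr3 0.14 (0.906), so the list's median was -0.49 with 1 of 4 called. Nr4a1, also known as Nur77, was at 90.3, 68.4, 73.7, 71.6 and 74.7 CPM at 30 min and at 44.8, 44.9, 28.6, 46.5 and 37.4 CPM at 120 min, and fell with a log2 fold change of -0.91 ± 0.156 (adjusted p = 0.00995). Nr4a3 had a similar fold change of -0.77 with libraries that overlapped (adjusted p = 0.185), and Nr4a2 had -0.35 ± 0.305.

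The list of general rapid response genes, which many cell types induce on stimulation, had 25 members tested. Of these, 5 were called lower and 0 higher, beside 0.0868% and 0.0579% of all genes. Sik1, a kinase that restrains CREB-driven transcription, was at 26.0, 25.4, 26.6, 24.3 and 22.0 CPM at 30 min and at 16.0, 15.6, 14.7, 18.4 and 16.8 CPM at 120 min. This was a narrow spread at both times around means of 24.9 and 16.3 CPM, and a log2 fold change of -0.61 ± 0.0985 (SE, adjusted p = 0.00566, edgeR). Dusp1, a phosphatase that switches off MAP kinases, was at 30.6, 25.3, 24.7, 24.9 and 23.5 CPM and then at 19.6, 19.6, 12.6, 17.0 and 15.3 CPM (log2 fold change -0.62, adjusted p = 0.0216). Ccn1, a secreted matrix protein formerly called Cyr61, went from a mean of 7.04 ± 1.42 to 4.05 ± 0.576 CPM (-0.80, adjusted p = 0.0216). Ier3 and Ier2, named for their immediate-early response, changed by less: Ier3 by -0.37 (adjusted p = 0.027) and Ier2 by -0.45 (0.0406). The list's median was -0.33, and 22 of its 25 members had negative values. Tiparp at -0.46 (adjusted p = 0.0612), Btg2 at -0.68 (0.0648) and Gadd45g at -0.33 (0.0989) were not called, although their libraries did not overlap between the times. The shear-responsive factor Klf2 had -0.52 with an adjusted p of 0.521.

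The genes that act at synapses and in neuronal signalling did not follow one direction. Npas4, a neuron-specific factor, fell from 19.3, 17.0, 17.6, 15.2 and 20.6 CPM to 10.2, 8.85, 9.07, 10.2 and 13.4 CPM (log2 fold change -0.79 ± 0.163 SE, adjusted p = 0.0401, edgeR). It was the 1 called gene of 13 in this list, whose median was 0.03. Arc, whose transcript is carried into dendrites, was at 127, 103, 113, 87.9 and 106 CPM at 30 min and at 69.1, 68.3, 34.0, 61.5 and 51.8 CPM at 120 min. Its libraries did not overlap, with a log2 fold change of -0.92 ± 0.223, yet the adjusted p was 0.0938 and Arc was not called by edgeR (DESeq2 called it, adjusted p = 0.0134). Nptx2 had 0.39 ± 0.237, Homer1 0.10 ± 0.124 and the neurotrophin gene Bdnf 0.11 ± 0.267, none of them called.

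Over the 5 activity lists together, 52 of 53 members were tested. Of these, 10 were called lower and 0 higher, beside 0.0868% and 0.0579% of all genes. DESeq2 called 16 of them lower, adding Arc, Fosl2, Tiparp, Btg2, Gadd45g and Plk3. At an unadjusted p under 0.05 the numbers were 22 lower and 0 higher of 52, beside 3.09% and 4.42% of all genes. The lists' joint median was -0.31, and 39 of the 52 had negative values, against 8680 of 17277 genes. In bulk tissue, fewer cells of a type and less transcript per cell cannot be told apart. The 10 called genes did not have the same library at the extreme. At 30 min, replicate 1, which also had the highest striatal marker sum of its time (1810 CPM), was the highest library for 6 of the 10 genes. Replicates 4 and 5 at 30 min, with 312 and 1030 CPM of striatal markers, were each the lowest for 4. At 120 min, replicate 3 was the lowest for 6 of the 10 and had the lowest striatal sum (314 CPM). Replicate 4, with 546 CPM, was the highest for 6, and replicate 6, with 1680 CPM, was the lowest for 2 and the highest for 1. The striatal markers' median log2 fold change was -0.35. In replicates 2 and 4 at 30 min, with striatal sums of 317 and 312 CPM, each of the 10 genes lay above all its 120 min libraries. The part of striatal tissue in the result was not tested. The count of 10 was 3 without replicate 1 at 30 min and 3 without replicate 3 at 120 min. It was also 3 without replicate 3 at 30 min, 4 without replicates 2 or 5 at 30 min or replicates 2 or 4 at 120 min, and 5 without replicate 6 at 120 min, each left out alone.

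**Figure D2:**
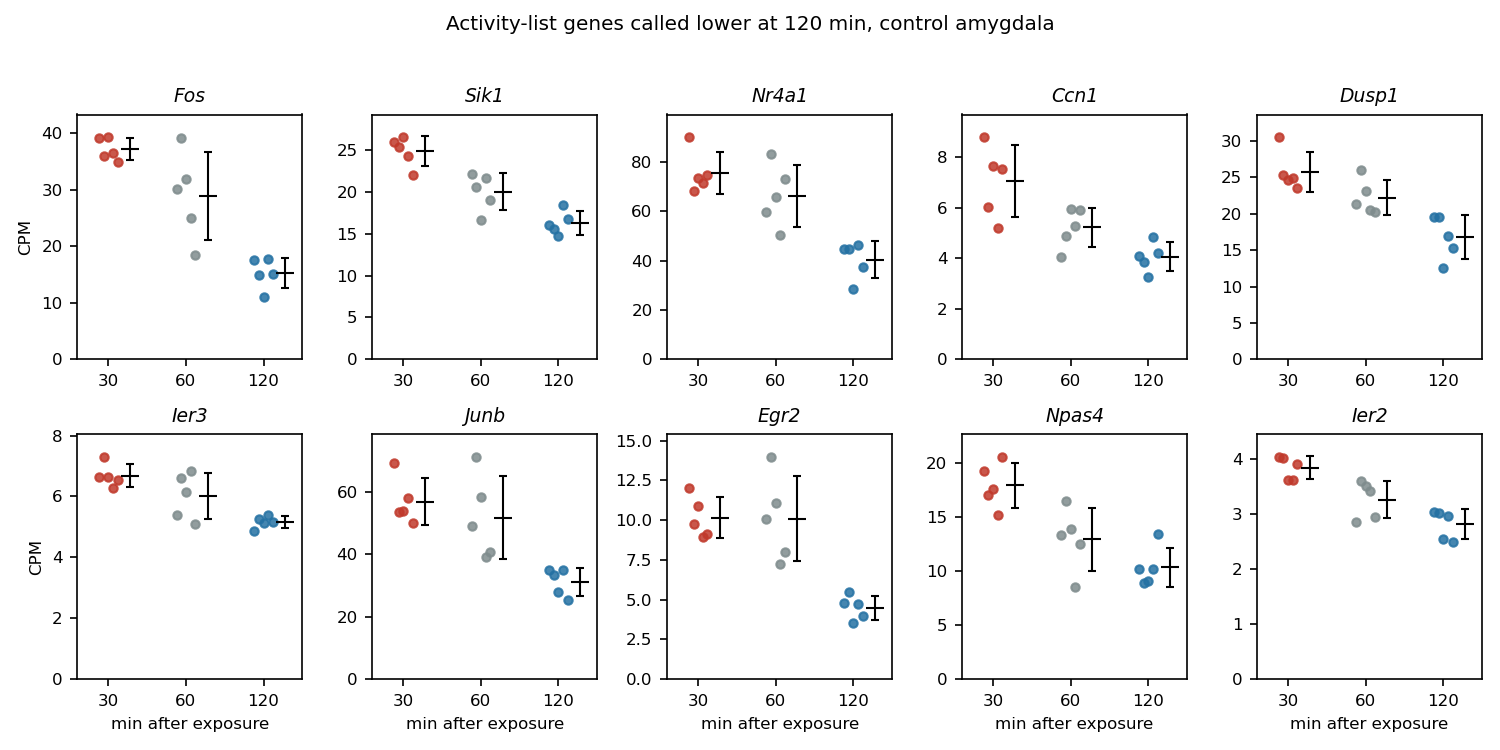
CPM of the 10 activity-list genes called lower at 120 min, in control amygdala at 30, 60 and 120 min (x axis). Each circle is 1 library, and the bar with whiskers is the mean ± SD of 5 libraries. In all 10 panels the circles at 120 min lie below those at 30 min, as for Fos with means of 37.2 and 15.3 CPM, while the 60 min means lie between for all 10 and the 60 min libraries overlap those of another time in each panel.

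For the called activity genes the regions just upstream of the start sites are shown, since cAMP response elements (CRE) bound by CREB and serum response elements (the CArG box) are the textbook control sites of immediate-early genes. Of the 10 genes, 8 matched the RefSeq promoter table (GRCm38.p6, windows of 250 bases before to 50 after a start), Sik1 and Ier2 being unmatched. The CRE core, TGACG on either strand (TGACG or CGTCA; adjoining matches may overlap), occurred in 7 of the 8 (Ier3 had none) and in 20.8% of all 32851 windows. The CArG box occurred in 1 of the 8, in a window of Egr2, and in 1.63% of all windows. Boxes outside the windows, or departing from the consensus, were not sought. Egr2 had 5 windows and each of the other 7 genes 1, so for Egr2 the share per window understates how often a gene with that many windows would hold a motif. The 4 genes with the smallest p that held either motif are printed over the 250 bases before the start, 5′ to 3′ on the gene's strand, with the CRE cores in capitals. They lie at chr12:85473640-85473889 (Fos, plus strand), chr15:101266596-101266845 (Nr4a1, plus strand), chr3:145649986-145650235 (Ccn1, minus strand) and chr17:26508473-26508722 (Dusp1, minus strand) of GRCm38.p6.
Fos: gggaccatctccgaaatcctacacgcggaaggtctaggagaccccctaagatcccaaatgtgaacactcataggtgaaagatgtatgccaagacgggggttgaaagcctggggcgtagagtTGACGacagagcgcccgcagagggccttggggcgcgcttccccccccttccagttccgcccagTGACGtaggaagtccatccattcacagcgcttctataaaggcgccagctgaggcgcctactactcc
Nr4a1: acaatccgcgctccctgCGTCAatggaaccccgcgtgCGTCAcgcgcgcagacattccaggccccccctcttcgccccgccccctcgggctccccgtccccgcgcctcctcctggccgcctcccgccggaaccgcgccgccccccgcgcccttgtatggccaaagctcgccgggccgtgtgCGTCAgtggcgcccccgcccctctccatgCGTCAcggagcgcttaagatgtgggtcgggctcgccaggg
Ccn1: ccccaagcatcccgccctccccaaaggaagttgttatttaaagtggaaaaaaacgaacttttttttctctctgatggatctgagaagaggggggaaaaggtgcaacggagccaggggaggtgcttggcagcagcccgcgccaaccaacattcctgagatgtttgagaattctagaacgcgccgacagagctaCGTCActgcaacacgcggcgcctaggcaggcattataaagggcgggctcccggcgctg
Dusp1: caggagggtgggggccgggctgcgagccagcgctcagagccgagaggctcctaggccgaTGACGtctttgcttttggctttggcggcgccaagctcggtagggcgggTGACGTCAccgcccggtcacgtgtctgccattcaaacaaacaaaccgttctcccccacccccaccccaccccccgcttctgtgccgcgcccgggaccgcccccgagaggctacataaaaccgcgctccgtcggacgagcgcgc
The cores began 129 and 66 bases before the start in Fos, 233, 213, 69 and 40 in Nr4a1, 58 in Ccn1 and 191, 143 and 140 in Dusp1. In Dusp1 the cores at 143 and 140 overlap on opposite strands and form the palindrome TGACGTCA. These matches describe letters and say nothing of binding in these animals.

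Of the lower genes outside the activity lists, 1700016P03Rik changed with the smallest p. It is a non-coding gene within whose span Gencode M21 places the microRNA genes Mir212 and Mir132, whose hairpins were not what these poly(A) libraries counted. It was at 8.74, 10.4, 8.8, 8.44 and 9.77 CPM at 30 min and at 5.07, 4.51, 3.4, 4.83 and 3.15 CPM at 120 min, a log2 fold change of -1.14 ± 0.176 (SE, adjusted p = 0.00363, edgeR). Apold1, an early response gene of vascular endothelium, was at 7.58, 5.69, 7.04, 4.68 and 5.4 CPM and later at 2.87, 3.49, 3.8, 3.08 and 2.45 CPM (-0.95 ± 0.169, adjusted p = 0.013). The median of the 8 endothelial markers was -0.34 in the same libraries, with Kdr at -0.60, Flt1 at -0.45 and Cldn5 at -0.39 and none called, and that of the 8 mural markers was -0.23. The part of vascular cells in the Apold1 and Ccn1 values was not tested. Gbp2b, an interferon-induced GTPase, went from 2.56 to 1.45 CPM on average. Its log2 fold change was -0.82 ± 0.174 (adjusted p = 0.0489), with 116 to 133 reads per library at 30 min and 42 to 88 at 120 min. Hipk4, a kinase gene, rests on 10 to 17 reads per library at 30 min and 3 to 6 at 120 min, so its log2 fold change of -1.69 (adjusted p = 0.0352) carries much counting error.

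The genes higher at 120 min were led by Rbm25, a splicing factor of the spliceosome's early steps. Rbm25 was at 79.7, 85, 84.9, 112 and 88.0 CPM at 30 min and at 125, 126, 141, 131 and 130 CPM at 120 min. Replicate 4 at 30 min was well above the other libraries of its time and still below all at 120 min, and the log2 fold change was 0.54 ± 0.0773 (SE, adjusted p = 0.00139, edgeR). Terf2, a telomere-binding protein gene, had the smallest change of the 25, from 31.9, 33.2, 32.3, 33.2 and 31.9 CPM to 38.3, 36.6, 37.5, 36.5 and 35.7 CPM. The spread within each time was narrow, and this log2 fold change of 0.18 ± 0.0311 was called in the fit of all 30 amygdala libraries (adjusted p = 0.00893). Tlr7, an endosomal receptor for single-stranded RNA, was at 3.54, 3.91, 3.61, 3.22 and 3.66 CPM and later at 4.83, 5.96, 4.75, 6.03 and 4.46 CPM (0.54 ± 0.0979, adjusted p = 0.0157). Microglia are a known site of Tlr7 expression, and their markers summed to 348 to 456 CPM at 30 min and 343 to 423 CPM at 120 min, with a median log2 fold change of -0.05; their part in the Tlr7 value was not tested.

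Hif3a, a hypoxia-inducible factor subunit that glucocorticoids induce, was the 1 called gene of the 18 on the glucocorticoid list, of which DESeq2 called 4 (Hif3a, Fkbp5, Zbtb16 and Bcl6). It was at 12.5, 7.71, 7.36, 4.44 and 4.19 CPM at 30 min and at 15.1, 19.2, 15.5, 19.6 and 14.0 CPM at 120 min. All later libraries were higher than all earlier ones, and the means of 7.24 ± 3.35 and 16.7 ± 2.53 CPM gave a log2 fold change of 1.2 ± 0.236 (SE, adjusted p = 0.027, edgeR). Within the 30 min group, libraries of different first index did not overlap for 7 of the 25 called genes, against 10.2% of all genes (Rbm25, Sik1, Apold1, Ier3, Egr2, Rin2 and Hif3a). For Hif3a, replicates 1 to 3, which share an index, were at 7.36 to 12.5 CPM and replicates 4 and 5, which share another, at 4.19 to 4.44 CPM. The log2 ratio of the 120 min mean to these subsets was 0.86 and 1.95. Of the other members, Fkbp5, a chaperone of the glucocorticoid receptor, was at 60.0, 52.5, 56.9, 49.2 and 41.6 CPM and later at 69.2, 79.0, 67.9, 79.6 and 65.0 CPM. Its libraries did not overlap between the times but were split by index at 30 min, with a log2 fold change of 0.47 ± 0.112, but its adjusted p was 0.0805. The transcription factor gene Zbtb16 was at 18.3, 19.8, 12.3, 13.5 and 8.81 CPM and later at 27.2, 36.4, 35.5, 37.3 and 26.3 CPM, again without overlap and not called (1.16 ± 0.299, adjusted p = 0.123). Bcl6 had 0.27 (adjusted p = 0.123), the lipid droplet gene Plin4 1.09 (0.365), the cell cycle inhibitor Cdkn1a 0.52 (0.414) and Sgk1, a kinase induced by corticosteroids, 0.04 (0.989). Per1, which is both a clock gene and a target of activity and of glucocorticoids, had -0.33 with an adjusted p of 0.343. The list's median was 0.24, with 8 members higher and 1 lower at an unadjusted p under 0.05, beside 4.42% and 3.09% of all genes.

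Of the remaining higher genes, Rin2, a regulator of the endocytic GTPase Rab5, went from 29.1 to 37.3 CPM (log2 fold change 0.36 ± 0.0754 SE, adjusted p = 0.0469, edgeR). The transmembrane protein genes Dcbld2 and Lrrn1 had tight groups: Dcbld2 was at 37.9 to 42.3 CPM and then at 48.6 to 53.2 CPM (0.32, adjusted p = 0.0401), and Lrrn1 at 61.3 to 64.4 and then at 71.4 to 80.5 CPM (0.28, adjusted p = 0.0469). Tmem196 went from 5.29 ± 1.02 to 7.5 ± 0.802 CPM (0.50, adjusted p = 0.0456), with the lowest library at 120 min (6.12 CPM) below 2 libraries at 30 min (6.39 CPM each). The pseudogenes Gm7808 (0.90, adjusted p = 0.0157) and Gm3272 (1.5, adjusted p = 0.0216) rest on 18 to 72 and 4 to 29 reads per library over both times. Reads that fit a parent gene as well could not be assigned uniquely, so their values are uncertain.

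**Figure D3:**
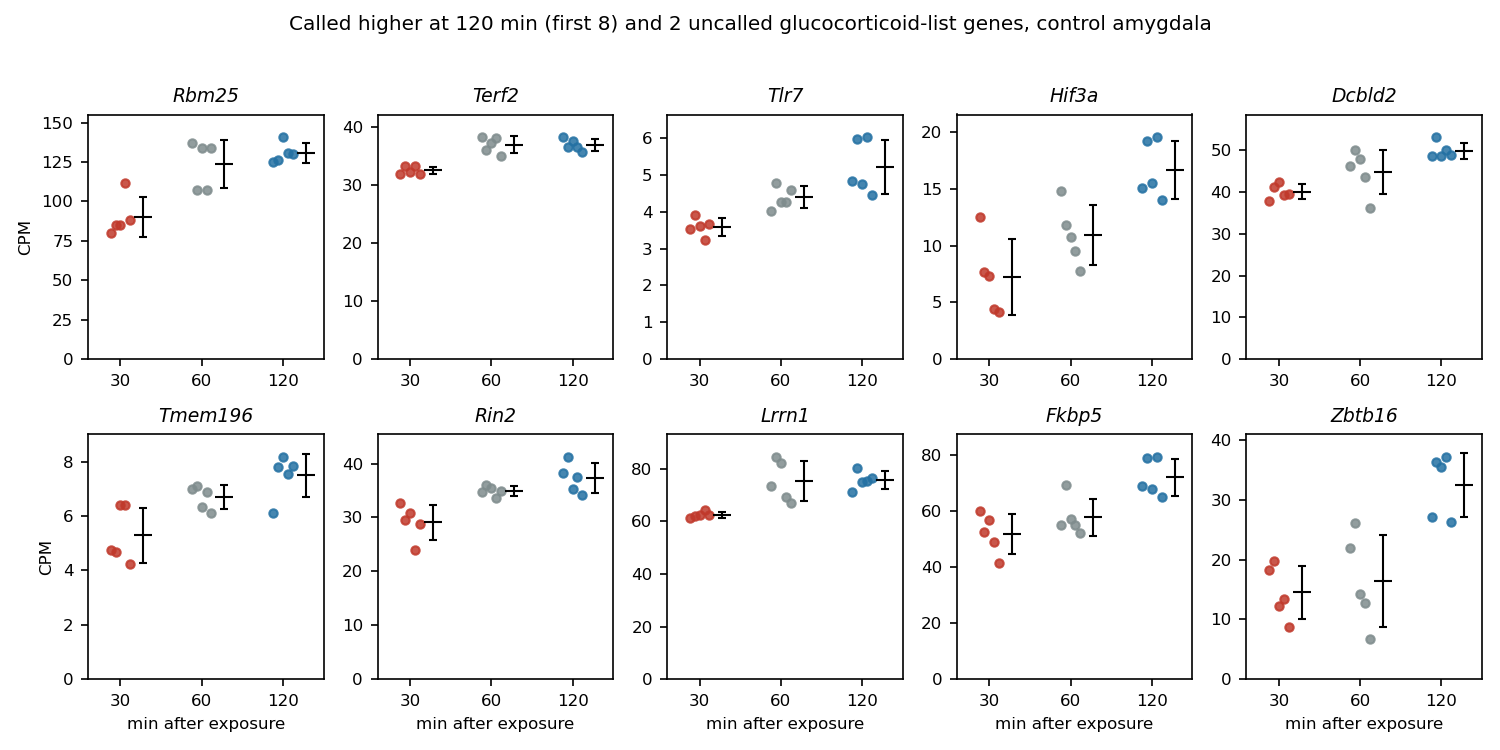
CPM in control amygdala at 30, 60 and 120 min (x axis) of the 8 protein-coding genes called higher at 120 min and of Fkbp5 and Zbtb16 from the glucocorticoid list, which were not called. Each circle is 1 library, and bars with whiskers are means ± SD of 5 libraries. Rbm25 and Terf2 are near their 120 min level at 60 min, while Zbtb16 is at a mean of 16.4 CPM at 60 min and 32.5 CPM at 120 min.

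The other lists gave no called gene between 30 and 120 min with edgeR, and DESeq2 called 1, a mitochondrially encoded gene that was lower. The 22 circadian clock genes had a median of -0.07 and 17 negative values, with 0 called. At an unadjusted p under 0.05, 3 were lower (Per1, Bhlhe41 at -0.19 and Dbp at -0.35), beside 3.09% of all genes. The 21 heat shock and chaperone genes had a median of -0.08 and 20 negative values, the 2 cold-inducible RNA-binding genes -0.08, and the 20 neuropeptides and receptors -0.05. The 21 glutamate and GABA-A receptor subunits had a median of 0.10 and 18 positive values. At an unadjusted p under 0.05, 2 were higher, among them Grin2a at 0.56 (adjusted p = 0.471), beside 4.42% of all genes. Medians were -0.06 for 78 cytosolic ribosomal protein genes, -0.04 for 77 nuclear oxidative phosphorylation genes and -0.07 for 12 mitochondrially encoded genes. Of these, 72, 62 and 11 had negative values, against 8680 of 17277 genes. At an unadjusted p under 0.05 (edgeR), 3, 1 and 3 were lower and 0 higher, beside 3.09% and 4.42% of all genes.

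**Figure D4:**
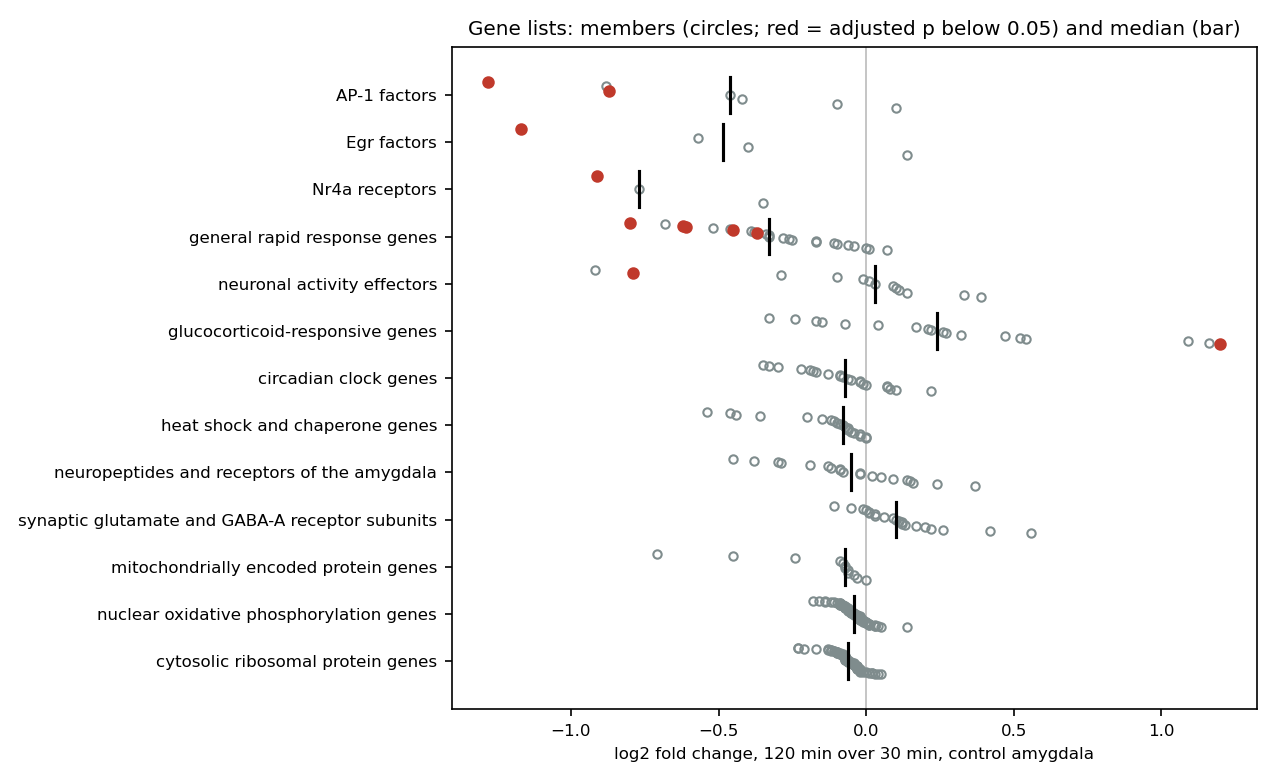
Log2 fold change of 120 over 30 min in control amygdala (x axis) for each tested member of 13 gene lists (rows). Open grey circles are genes that were not called, red circles genes with an adjusted p under 0.05, and black bars list medians. The AP-1, Egr, Nr4a and general rapid response rows lie mostly left of 0, with medians of -0.46, -0.49, -0.77 and -0.33, and the glucocorticoid row mostly right of it, with a median of 0.24.

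Control amygdala at 60 min places these changes in time. The comparisons of 60 with 30 min and of 120 with 60 min share libraries with the main one, so their values are given side by side only. For Fos, whose 60 min libraries were at 30.2, 39.2, 31.9, 25.1 and 18.4 CPM, the log2 difference was -0.36 from 30 to 60 min (adjusted p = 0.372, edgeR) and -0.92 from 60 to 120 min (adjusted p = 0.0168). The 60 min libraries overlapped those at 30 min and lay above all those at 120 min. For Egr2 the steps were -0.01 and -1.16, for Junb -0.14 and -0.73, for Nr4a1 -0.19 and -0.72, and none of these steps was called. Sik1 split evenly, with -0.31 and -0.30, and Npas4 had -0.47 and -0.32. The step from 60 to 120 min was the larger for 10 of the 15 lower genes. Over the 5 activity lists the median was 0.01 from 30 to 60 min and -0.24 from 60 to 120 min. The libraries at 60 and 120 min carry the same tag in their column names.

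Of the 10 higher genes, 7 had the larger step from 30 to 60 min, across which the column tag changes. Rbm25 had 0.46 and then 0.08 (adjusted p = 0.00637 and 0.821, edgeR), Terf2 0.19 and 0.00 (0.00637 and 0.992), and Gm7808 0.99 and -0.08 (0.00637 and 0.919). Hif3a was spread over both steps, with 0.60 and 0.61, neither called. In all, 23 genes were called between 30 and 60 min (0.133% of genes), 19 higher (0.11%) and 4 lower (0.0232%), and 4 between 60 and 120 min (0.0232%), all of them lower: Anp32e, a histone chaperone gene, at -0.27, Fos, the receptor gene Lgr4 at -0.27, and Tnfrsf19 at -0.31. Anp32e was at 84.3 to 90.4 CPM at 30 min, 95.1 to 110 CPM at 60 min and 82.1 to 87.3 CPM at 120 min, so that its 30 and 120 min levels overlapped (log2 fold change -0.04). Proser1, a chromatin-associated protein gene, led the genes higher at 60 min with 0.49 (adjusted p = 0.00303). From 30 to 120 min Proser1 had 0.31 and was not called in the main fit. DESeq2 and the fit without replicate 1 at 120 min did call it over that interval. With the first library index as a term, and in fits of the compared groups alone, no gene was called in either step, while DESeq2 called 126 and 61. Without replicate 1 at 60 min, the count from 30 to 60 min was 186 and that from 60 to 120 min 51; without replicate 5 at 60 min they were 58 and 7.

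Residents exposed to the intruder give the same contrast in other animals, with no library shared. Both contrasts come from 1 fit, so the scaling and the estimates of spread are shared. Between 30 and 120 min 2584 genes were called in them (15.0% of genes), with 8.86% of genes higher and 6.09% lower. Of the 25 genes called in controls, 24 had the same direction in intruder-exposed amygdala (96%, against 56.3% of all genes) and 20 were also called there in that direction (80.0%, against 11.1%). All 15 lower genes were lower, 13 of them called: Fos had -1.48 ± 0.153 (SE, adjusted p = 2.44e-06, edgeR), 1700016P03Rik -1.26, Junb -1.26, Egr2 -1.11 and Ier2 -0.86. Hipk4 had -0.19 and was not called. Of the 10 higher genes 7 were called, among them Rbm25 at 0.63, Tlr7 at 0.78 and Hif3a at 0.79. Tmem196 at 0.28 and the pseudogenes Gm7808 at -0.03 and Gm3272 at 0.04 were not. The column tag separates 30 from 120 min in these animals as well. The 2584 calls fell to 1 with the first library index as a term, and the count was 1644 without intruder-exposed replicate 1 at 30 min.

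The difference between the changes in intruder-exposed and control amygdala was tested itself. It was called for 24 genes (0.139% of genes), 19 with the larger log2 fold change in intruder-exposed animals (0.11%), and for 0 of the 25 genes above. Dnajc3, a chaperone of the endoplasmic reticulum, had a log2 fold change of -0.03 in controls and a difference of 0.50 (adjusted p = 0.0436, edgeR). Nufip2, an RNA-binding protein gene, had -0.01 and 0.45 (0.0436), and Uba6, a ubiquitin-activating enzyme gene, -0.05 and 0.41 (0.0451). Mep1a and the pseudogene Gm7117 had 0.92 and 1.22 in controls and differences of -1.89 and -2.72. For Fos the difference was -0.19 ± 0.213, and for Ier2, the activity gene with the smallest interaction p among the called ones, -0.41 (adjusted p = 0.162). The heat shock list, with no called gene in controls, had 10 of 21 called higher (against 8.86% of all genes) and 1 called lower (Hsf1, a heat shock factor, at -0.20) in intruder-exposed animals, with a median of 0.27 there. In the test of the difference itself 1 of the 21 was called, the cochaperone gene Chordc1 (0.52, adjusted p = 0.0485), while Pdia4 had 0.70 (0.0587) and Hsph1 0.50 (0.0921). The count of 24 was 0 in 11 of the 20 fits that left out 1 library: without control replicate 1, 3 or 4 at 120 min or 2 or 5 at 30 min, and without intruder-exposed replicate 1 or 6 at 120 min or 1, 3, 4 or 5 at 30 min. It was 56 without control replicate 1 at 30 min, 31 without intruder-exposed replicate 2 at 120 min, and 1 to 9 in the other 7. It was also 0 with the first library index as a term and without the filter on low counts, 5 with voom, and 199 with DESeq2.

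**Figure D5:**
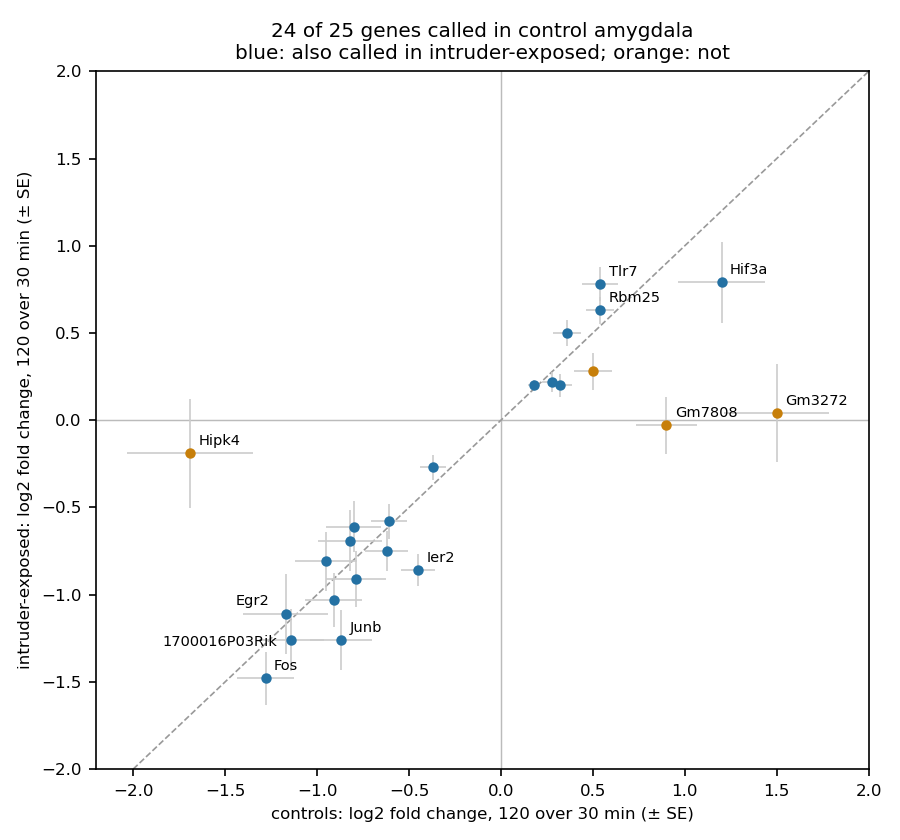
Log2 fold change of 120 over 30 min in intruder-exposed (y axis) against control amygdala (x axis) for 24 of the 25 genes called in controls. Points are fitted values with standard errors, blue where the gene was also called in intruder-exposed animals and orange where not, and the dashed line marks equal values. The 20 blue points lie on the side of 0 that the controls show, and the orange points include Hipk4, Gm3272 and Gm7808, which lie near 0 on the y axis.

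Other regions of the control animals were set beside the amygdala. Fos in the hypothalamus was at 33.3 ± 0.416 CPM at 30 min (SD, n = 3) and 9.94 ± 1.76 at 120 min (n = 5), and in frontal cortex at 58.9 ± 8.21 (n = 5) and 31.2 ± 6.57 (n = 6). In the hypothalamus 26 genes were called (0.146% of genes, 0.0785% higher and 0.0673% lower), with log2 fold changes of -1.75 for Fos, -1.30 for Junb, -1.17 for Nr4a1 and -1.13 for 1700016P03Rik, all called, and of 1.56 for Hif3a, 0.54 for Rbm25 and 0.50 for Rin2, called too. All 15 lower genes of the amygdala had negative values there, 4 of them called, and of its 10 activity-list genes 3 were called. Over the 5 activity lists 6 of 52 members were called in the hypothalamus, with a median of -0.14. A test of 30 against 120 min within frontal cortex was not run. Of the 10 higher genes 7 had positive values, 3 of them called. The direction was thus the same for 88% of the 25, against 55% of all genes tested in both fits. Libraries of both regions were taken to come from the same animals and so not to be independent, and the column tag follows time in both. The amygdala and the hypothalamus were not shown to differ in this change: 0 genes were called (edgeR), with 1211 at an unadjusted p under 0.05, or 6.79% of genes. The smallest p-values were those of Gm11273 (log2 difference 1.40, adjusted p = 0.316) and Egr1, which fell in the hypothalamus by 1.24 (adjusted p = 1.15e-05) and had a difference of 0.84 (adjusted p = 0.316).

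Between amygdala and frontal cortex 84 genes differed in their change from 30 to 120 min (0.471% of genes), 71 of them with the larger value in amygdala (0.398%), among them 2 of the 25, Rbm25 and Terf2. Rbm25 was at 89.2 ± 12.3 CPM at 30 min and 130 ± 6.12 CPM at 120 min in amygdala (n = 5 each), but at 136 ± 3.36 (n = 5) and 102 ± 6.52 CPM (n = 6) in frontal cortex, a difference in log2 fold change of 0.96 (adjusted p = 8.31e-05, edgeR). Thus it was higher at 120 min in amygdala and lower in frontal cortex. Terf2 was at 32.3 and 36.7 CPM in amygdala and at 38.3 and 36.1 CPM in frontal cortex, a difference of 0.27 (adjusted p = 0.00902). Proser1 had a difference of 1.00 (adjusted p = 0.000413), S1pr1 0.69, Scyl3 0.36 and Brwd1 0.31. For the called activity genes the differences ran from -0.43 for Npas4 to 0.24 for Ccn1 and none was called. The count of 84 was 370 without amygdala replicate 1 and 219 without frontal cortex replicate 2 at 120 min. It was 22 to 54 without amygdala replicate 1 at 30 min or 2, 3 or 4 at 120 min, or frontal cortex replicate 1, 2 or 4 at 30 min or 4 at 120 min, each left out alone. In every region all libraries at 30 min carry one column tag and all at 120 min the other.

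These calls rest on few libraries and on 1 set of indexes. With the first library index as a term, which only libraries outside the 10 make possible, 0 of the 25 genes were called, and all 25 kept their direction. The ratio of the 120 min mean to either index subset of the 30 min libraries had the direction of the fit for all 25, which for the 24 without overlap follows from that alone. The count of 25 was 15 without replicate 1, 10 without replicate 2, 8 without replicate 3 and 10 without replicate 5 at 30 min, each left out alone. At 120 min it was 44 without replicate 1, 8 without replicate 2, 15 without replicate 3 and 10 without replicate 4. Fos, Rbm25, 1700016P03Rik, Sik1, Terf2 and Nr4a1 were called in each of the 10 fits that left out 1 library, and each of the other 19 was not called in at least 1 of them. Rbm25 and Terf2 were not called in the fit of the 10 libraries alone nor in that of the 3 control groups, while Fos, 1700016P03Rik, Sik1 and Nr4a1 were called in both. The fit of the 10 libraries alone called 10 genes, 9 of them among the 25.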

How the data were processed

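The 10 libraries were made with a stranded poly(A) kit and read from a single end, per the labels' protocols. The submitters' processing notes name CASAVA 1.8.2, TopHat2 2.0.8, HTSeq 0.6.1, edgeR 3.2.4, R 3.0.0 and the build NCBIM37, without saying which step each served. The authors deposited counts, whole numbers of reads per Ensembl gene (37991 rows), and the 5 rows of reads without a gene were left out here. Of a library's reads in the table, 11.03% to 12.8% had no feature and 0.662% to 0.72% were ambiguous. The table's columns were matched to samples by name, with 0 left unmatched. Symbols came from Gencode M21 (32919 matched). No coordinate of the reference was applied to the counts, since its build differs.

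From the counts, edgeR 4.0.16 under R 4.3.3 was fitted to all 30 amygdala libraries with 1 coefficient per condition and time (filterByExpr, TMM scaling, quasi-likelihood test, two-sided), and to 29 control libraries of the 3 regions for the differences between regions. Adjusted p-values are over all genes tested, and 0.05 was the threshold. CPM use TMM-scaled library sizes. The coefficient of variation common to all genes was 14.1% in amygdala and 11.5% in the fit of regions. Reads carry no molecular identifiers, so their number limits precision only as counting error. Alternatives were DESeq2 1.42.0, voom of limma 3.58.1, other scalings and filters, fits of fewer groups, blocks, and leaving out each library. The fit was tested on simulated data.

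Equal replicate numbers were taken to stand for different animals at different times. Within a time they were taken to link regions of 1 animal, and an animal block was therefore an alternative for the region comparisons. Both readings of the numbers are assumptions. Deviations of equally numbered amygdala and hypothalamus libraries of a time correlated across genes at 0.11 to 0.46, those of amygdala and frontal cortex at -0.11 to 0.38. No 2 libraries of a group were alike within sampling noise (smallest chi-square per gene 8.58).

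Genes called between 30 and 120 min are named, except 1 that is not reported here and is left out of the figures of single genes, as are list members and, in each other comparison, up to 5 called genes by smallest p or, where none was called, the 2 smallest p. The genes, lists and tests were chosen with earlier results of these data known.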

Additional observations from a re-analysis of the deposited data

Results flagged for a closer look

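In 9 of 160 groups of 5 libraries examined (genes named in the report, marker sums, depth measures), 1 library lay apart from the other 4 by Dixon's criterion at the 95% level, where chance gives about 1 in 20. At 30 min, Rbm25 had 1 library at 112 CPM with the others at 79.7 to 88.0 CPM (replicate 4). Nr4a1 had 1 at 90.3 with the others at 68.4 to 74.7 CPM, and Dusp1 1 at 30.6 with the others at 23.5 to 25.3 CPM, both replicate 1. Atf3 had 1 at 0.684 CPM and the others at 1.13 to 1.3 CPM. At 120 min, Hipk4 had 1 library at 0.129 CPM with the others at 0.0578 to 0.0656, Gbp2b 1 at 0.918 with the others at 1.49 to 1.69, and Egr1 1 at 132 with the others at 166 to 179 CPM. The summed astrocyte markers had 1 library at 4410 CPM with the others at 3920 to 4040, and the striatal markers 1 at 1680 CPM with the others at 314 to 546.

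The change from 30 to 120 min differed between intruder-exposed and control amygdala for 24 genes by the interaction test, among the named ones Anp32e with a log2 difference of 0.26. It differed between amygdala and frontal cortex of the controls for 84 genes, among them Rbm25 with 0.96, Terf2 with 0.27 and Proser1 with 1.00.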

How the results depend on the processing

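The 25 genes called between 30 and 120 min in control amygdala became 93 with DESeq2, which still called all 25, 16 without the filter on low counts, 10 in a fit of both groups alone, 6 in a fit of the 3 control groups and 0 with the first library index as block; other scalings, voom and a filter at 1 CPM gave 22 to 25. From 30 to 60 min the 23 calls became 126 with DESeq2, 13 without filter, and 0 in the fit of both groups and with the index block. From 60 to 120 min the 4 became 61, 2, 0 and 0 under the same settings. The 2584 calls in intruder-exposed animals became 1 with the index block. The 24 genes differing between intruder-exposed and control animals became 199 with DESeq2, 9 with RLE and 6 with upper-quartile scaling, 5 with voom, and 0 without filter and with the index block. The 84 genes differing between amygdala and frontal cortex became 299 with DESeq2, and the 0 between amygdala and hypothalamus stayed 0 in every alternative but those leaving out 1 library. The 10 activity-list genes became 16 with DESeq2, 4 in the fit of the 3 control groups and 0 with the index block. The causes were not tested.

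Replicate numbers were not taken to pair animals across times. Deviations of equally numbered libraries at 30 and 120 min correlated at -0.44 to 0.56, and no library correlated best with its own number. With the replicate block the counts were 29 for 30 against 120 min (19 of the 25 among them), 12 for 30 against 60 min, 6 for 60 against 120 min and 72 for their difference from controls. The animal block gave 90 genes for frontal cortex and 0 for hypothalamus.

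Leaving out 1 library at a time gave 8 to 44 calls for 30 against 120 min, 12 to 186 for 30 against 60, 1 to 51 for 60 against 120, 1644 to 2424 in intruder-exposed animals, 0 to 56 for the difference from controls, 22 to 370 for frontal cortex, 0 to 12 for hypothalamus (12 without its control replicate 2 at 30 min) and 3 to 10 activity-list genes. The joint median of the activity lists was -0.37 to -0.23. The medians of the neuropeptides, at -0.07 to 0.02, and of the mitochondrially encoded genes, at -0.13 to -0.02, also varied, by less than 1 SD between libraries. List medians moved by more than 1 SD between libraries with the index block alone: AP-1 to -0.30, Nr4a to -0.28, clock to 0.04, cold-inducible to 0.64, ribosomal to -0.21, heat shock to -0.55, nuclear oxidative phosphorylation to -0.28 and synaptic receptors to 0.20. Under that block 8 uncalled genes changed sign: Jun 0.16, Jund -0.17, Egr3 -0.06, Nr4a2 0.33, Homer1 -0.17, Plk3 0.16, Dbp 0.04 and Bhlhe41 0.01. So did 2 more, both uncalled, when 1 library was left out: Bdnf ranged from -0.01 to 0.23 and Sgk1 from -0.07 to 0.20, with -0.06 in 2 fits. Genes with few reads, such as Hipk4, are limited by depth.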
